A study of Homo sapiens with 6 samples.

Results

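The genes described here encode the cullins, the RING proteins RBX1 and RNF7, the adaptor SKP1 and the F-box proteins, which together form the cullin-RING ubiquitin ligases of the SCF type and their closest relatives. Members were chosen by name: gene symbols of the form CUL with a number, FBXO, FBXL or FBXW with a number, and the genes SKP1, SKP2, RBX1, RNF7, BTRC and CCNF, with at least 10 counts in 3 or more libraries. Of 58735 rows in the table, 77 carried such a name and 71 passed the count filter, and all 71 were tested. They were 8 cullins, 3 adaptor or RING genes and 60 F-box genes, made up of 8 FBXW genes, 19 FBXL genes and 33 FBXO genes. BTRC was counted with the FBXW genes, SKP2 with the FBXL genes and CCNF with the FBXO genes.

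RNA-seq was done on ACHN cells, an established human renal cancer cell line, transfected with a control small interfering RNA (siRNA) or with an siRNA against OTUD1, a deubiquitinase of the OTU family. Each group had 3 libraries, all cells were grown in minimum essential medium with fetal bovine serum, and the labels name 1 OTUD1 siRNA, si01. No group combined the siRNA with another OTUD1 siRNA or with re-expressed OTUD1, so effects of this siRNA on other transcripts cannot be told apart from effects of OTUD1 loss. Separate cultures are not named for the replicate libraries. The p-values therefore reflect spread among these libraries, some or all of which may be technical.

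Total counts ranged from 16753495 to 18993534 in the control libraries and from 17243433 to 21013530 in the OTUD1 siRNA libraries, of which the members held 43948 to 58036 counts per library. Levels are CPM, counts relative to the TMM-scaled library size, listed in the order of replicates 1, 2 and 3. OTUD1 itself was at 3.82, 3.69 and 3.80 CPM in the control libraries and at 1.28, 0.844 and 1.39 CPM in the OTUD1 siRNA libraries, a log2 fold change of −1.69 (SE 0.235, adjusted p = 4.37e-07, edgeR quasi-likelihood test). A list of 10 renal tubule and renal cancer markers held PAX8, PAX2, KRT8, KRT18, CDH2, VIM, EPCAM, LRP2, CUBN and CDH16. Of these, 8 were expressed enough to be tested, 1 higher and 6 lower, where 29.3% and 31.1% of all tested genes were. LRP2 was at 0 in every library. Their summed level was 7134 to 7353 CPM in control and 3668 to 3760 CPM in OTUD1 siRNA libraries. The list is not limited to kidney-specific genes, and the sum was not split by gene. Leukocyte markers summed to 1.19 to 1.94 CPM over all 6 libraries, with PTPRC, CD3E, LYZ and MS4A1 at 0, and fibroblast and endothelial markers to 3.47 to 6.56 CPM. In bulk RNA, fewer cells expressing a gene and less RNA per cell cannot be told apart.

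A cullin is a long scaffold that binds a RING protein at one end and a substrate receptor at the other. The RING protein recruits a ubiquitin-charged E2 enzyme, and the receptor holds the protein to be marked. In the SCF ligases the scaffold is CUL1, the adaptor SKP1 and the receptor an F-box protein, named FBXW, FBXL or FBXO for WD40 repeats, leucine-rich repeats or other domains. Cullins are switched on by attachment of the small protein NEDD8. In the kidney the family is best known for the VHL receptor on CUL2, which marks hypoxia-inducible factor subunits and is often lost in clear cell renal cancer.

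Promoter sequences are given for the 3 F-box genes best known from the cell cycle, because all 3 were lower after OTUD1 siRNA: SKP2, the receptor that marks the cyclin-dependent kinase inhibitor p27; FBXO5, better known as the anaphase-promoting complex inhibitor EMI1; and CCNF, cyclin F. Each is the 250 bases upstream of a RefSeq start site (GRCh38.p14), 5′ to 3′ on the strand of the gene. Capitals mark the cell cycle genes homology region (CHR; TTTGAA or TTCGAA) and the CCAAT box, an element bound by NF-Y, each searched on both strands; overlapping matches were counted separately. They lie at chr16:2429197-2429446 (+) for CCNF, chr6:152983042-152983291 (−) for FBXO5 and chr5:36151861-36152110 (+) for SKP2.
CCNF: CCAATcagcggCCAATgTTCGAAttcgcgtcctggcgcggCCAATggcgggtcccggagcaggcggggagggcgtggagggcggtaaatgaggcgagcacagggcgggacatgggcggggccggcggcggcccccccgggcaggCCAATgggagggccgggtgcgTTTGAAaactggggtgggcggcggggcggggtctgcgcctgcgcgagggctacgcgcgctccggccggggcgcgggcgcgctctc
FBXO5: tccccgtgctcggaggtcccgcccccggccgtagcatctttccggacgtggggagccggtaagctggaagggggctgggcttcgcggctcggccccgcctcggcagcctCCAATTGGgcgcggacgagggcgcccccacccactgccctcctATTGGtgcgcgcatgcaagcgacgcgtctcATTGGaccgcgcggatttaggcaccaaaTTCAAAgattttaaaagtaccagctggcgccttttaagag
SKP2: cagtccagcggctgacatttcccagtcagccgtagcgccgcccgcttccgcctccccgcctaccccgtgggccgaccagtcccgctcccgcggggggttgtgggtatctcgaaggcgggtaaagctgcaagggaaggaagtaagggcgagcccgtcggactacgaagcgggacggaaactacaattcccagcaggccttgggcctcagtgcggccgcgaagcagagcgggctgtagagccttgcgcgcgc
The CCNF stretch held 2 CHR and 4 CCAAT matches, the FBXO5 stretch 1 CHR and 4 CCAAT matches, and the SKP2 stretch none. FBXO5 has another RefSeq start site whose upstream 250 bases held none, so the window shown was picked for its matches. A gene counted as a match if any of its RefSeq promoters of 300 bases held one, while the 35116 promoters were counted singly. Of the 55 members with such a promoter, 10 (18.2%) held a CHR match, against 15% of 10608 tested genes and 16.4% of all promoters. Of those 10, 4 were lower after OTUD1 siRNA and 0 higher, where 31.1% of all tested genes were lower and 29.3% higher. The 4 were CCNF, FBXO5, CUL4B and FBXO11. Calls among the tested genes with a CHR match, the like group, were not counted. CHR and CCAAT matches occurred together in 6 of the 55 members (10.9%), against 6.38% of all promoters and 6.32% of tested genes, and 3 of the 6 were lower. A CCAAT match, with or without CHR, was in 22 members (40%), against 34.6% of all promoters and 42.7% of tested genes. E2F matches (TTTCCCGC, TTTGGCGC, TTTGCCGC or TTTCGCGC) were in 3 members (5.45%), CUL4A, FBXO44 and FBXO9, against 3.31% of all promoters and 6.59% of tested genes; FBXO44 and FBXO9 were higher and CUL4A was not called. A match describes letters only, and whether any factor was bound there was not measured.

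Short stretches of 3′ UTR are shown for a second feature. The 7-mer CAAACAA was taken from an earlier search of these same data, so the direction of its carriers is no independent support. It occurred in the annotated 3′ UTR of 13 of 70 members (18.6%) and of 1762 of 12605 tested genes (14%). The 4 carriers with the largest falls were SKP2, FBXO5, FBXL4, a regulator of mitochondrial turnover, and FBXO30. The 29 bases around each site, with the 7-mer in capitals, lie at chr5:36182370-36182398 (+), chr6:152970932-152970960 (−), chr6:98872029-98872057 (−) and chr6:145799382-145799410 (−) on GRCh38.
SKP2: attaccaccagCAAACAAtcttcatagcc
FBXO5: tcaatacaaatCAAACAAtttaaatattt
FBXL4: tacttgtaattCAAACAAtgttgtcatca
FBXO30: caaagcaaaaaCAAACAAaaagcaagcct
Of the 13 carriers, 5 were lower (SKP1 was the other) and 1, FBXL20, was higher; of the 57 members without the 7-mer, 15 were lower and 21 higher. Among all tested genes with an annotated 3′ UTR, 53.8% of carriers and 32.5% of the others were lower. Carriers had longer 3′ UTRs, with a median of 2484 bases against 1055 among the members and 2974 against 930 among all tested genes, and the part of length was not tested. CUL2 and CUL3, which were among the members that fell, did not carry the 7-mer.

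As a family, the cullin and F-box genes moved in both directions and about as often as genes in general. Of the 71 members, 23 (32.4%) were higher and 20 (28.2%) lower after OTUD1 siRNA at an adjusted p under 0.05 in edgeR's quasi-likelihood test, and 28 were not called. Among all 15244 tested genes, 29.3% were called higher and 31.1% lower, 60.4% in either direction against 60.6% of the members. Called changes of 0.5 or more on the log2 scale were seen upward in 7 of the 71 members and downward in 8, against 14.4% and 13.6% of all genes. Control and OTUD1 siRNA libraries did not overlap in 43 members (60.6%), against 64.5% of all genes. The median log2 fold change was 0.05 over the members and 0.01 over all genes, and the quartiles of the members were −0.17 and 0.28. The members' shares thus lay near those of all tested genes.

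**Figure D1:**
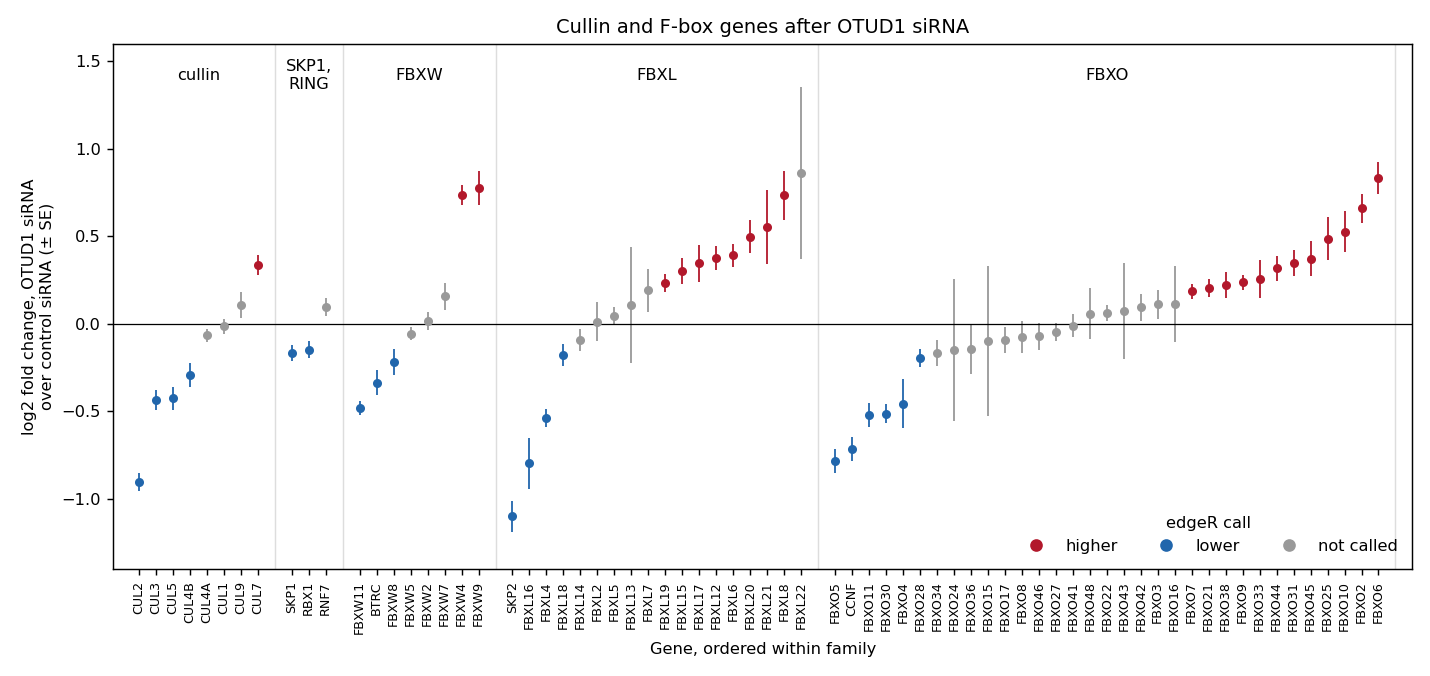
Log2 fold change (OTUD1 siRNA over control siRNA, ± SE, n = 3 libraries a group) of the tested cullin, adaptor or RING and F-box genes (1 F-box gene is not shown), ordered within its family and coloured by the edgeR call at an adjusted p of 0.05. Cullins lay mostly below 0, with CUL2 at −0.90, while SKP2 at −1.10 was the lowest F-box gene and FBXO6 at 0.83 the highest one called.

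By branch, the counts stand against 29.3% higher and 31.1% lower over all tested genes. Of the 8 cullins, 4 were lower and 1 higher, with a median log2 fold change of −0.18. Of the 60 F-box genes, 22 (36.7%) were higher and 14 (23.3%) lower, with a median of 0.07. Among the leucine-rich repeat genes 8 were higher and 5 lower of 19, among the FBXO genes 12 were higher and 6 lower of 33, and among the WD40 genes 2 were higher and 3 lower of 8. The plot of log2 fold changes by family shows these groups side by side. No test was made between the branches. Scaling by library totals instead of TMM moved the median of all genes up by 0.13 and gave 33 members higher and 14 lower, and quantile normalization gave 26 and 15, so the split of higher against lower calls depends on the scaling (53.5% of called members higher in the fit as reported, 70.2% and 63.4% in those).

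Among the scaffolds, CUL2 changed most. CUL2, the scaffold for VHL and other Elongin-bound receptors (chr10:35008551-35090642), was at 102, 115 and 112 CPM in the control libraries and at 55.9, 62.1 and 57.9 CPM in the OTUD1 siRNA libraries. The groups lay far apart, with a log2 fold change of −0.90 (SE 0.0508, adjusted p = 3.27e-15), or 1.87-fold lower. CUL5, which also works through Elongin B and C and carries the SOCS-box receptors (chr11:108008733-108107776), was at 36.3, 38.4 and 37.6 CPM against 28.0, 29.2 and 26.3 CPM. It fell by 0.43 on the log2 scale (SE 0.0642, adjusted p = 1.48e-06) without overlap. CUL3, the scaffold for BTB-domain receptors (chr2:224470150-224585397), was at 92.9, 88.5 and 86.7 CPM against 69.1, 69.9 and 58.6 CPM. It fell by 0.44 (SE 0.0546, adjusted p = 6.32e-08), and OTUD1 siRNA library 3 was the lowest of the 6.

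Of the CUL4 paralogues, which bind receptors through DDB1, CUL4B was called lower and CUL4A was not called. CUL4B (chrX:120524609-120575794) was at 38.5, 44.4 and 36.8 CPM in control and at 33.5, 34.4 and 29.9 CPM in OTUD1 siRNA libraries, a fall of 0.29 on the log2 scale (SE 0.0704, adjusted p = 7.05e-04). CUL4A (chr13:113208193-113267108) was at 125, 131 and 129 CPM against 123, 126 and 118 CPM, with overlapping groups. Its log2 fold change of −0.07 did not pass the test (SE 0.0395, adjusted p = 0.148), and its sign turned with library totals and with quantile normalization.

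CUL1, the SCF scaffold (chr7:148697914-148801036), was at 101, 102 and 106 CPM in control and at 104, 103 and 97.8 CPM in OTUD1 siRNA libraries. The groups overlapped, and the log2 fold change was −0.01 with an approximate 95% interval from −0.10 to 0.07 (adjusted p = 0.797). With library totals it was 0.12 (adjusted p = 0.0187), so its sign depends on the scaling. CUL7, an atypical scaffold that works with FBXW8 (chr6:43037617-43053945), was the cullin that rose. It was at 50.8, 52.4 and 54.8 CPM in control and at 72.5, 63.0 and 63.4 CPM in OTUD1 siRNA libraries, 1.26-fold higher (adjusted p = 9.43e-06) and without overlap. Its paralogue CUL9, at 32.6, 28.6 and 26.3 CPM against 30.8, 30.4 and 33.0 CPM, had a log2 fold change of 0.11 that did not pass the test (adjusted p = 0.212). CUL9 was called higher without control library 1 (0.19, adjusted p = 0.0315), with library totals (0.24) and with quantile normalization (0.18).

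The shared adaptor and RING genes moved little. SKP1, which bridges CUL1 and the F-box (chr5:134148935-134177038), was at 116, 127 and 129 CPM in control and at 107, 117 and 108 CPM in OTUD1 siRNA libraries. Its groups overlapped, though the fall of 0.17 on the log2 scale passed the test (SE 0.0455, adjusted p = 0.00235). RBX1, the RING protein of most cullins (chr22:40951347-40973309), was at 63.4, 61.3 and 63.8 CPM against 57.3, 56.5 and 56.2 CPM and fell by 0.15 (adjusted p = 0.0106). RNF7, the RING partner of CUL5 (chr3:141738204-141747560), was at 51.3, 49.3 and 50.04 CPM against 54.6, 52.9 and 53.6 CPM. Its groups did not overlap, but its log2 fold change of 0.10 did not pass the test (adjusted p = 0.106). All 3 calls depend on the scaling: with library totals and with quantile normalization SKP1 (−0.04 and −0.05) and RBX1 (−0.02 and −0.06) were not called, and RNF7 (0.23 and 0.18) was called higher. With genes under a mean of 5 CPM left out, RBX1 was not called (−0.10) and RNF7 was (0.15).

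**Figure D2:**
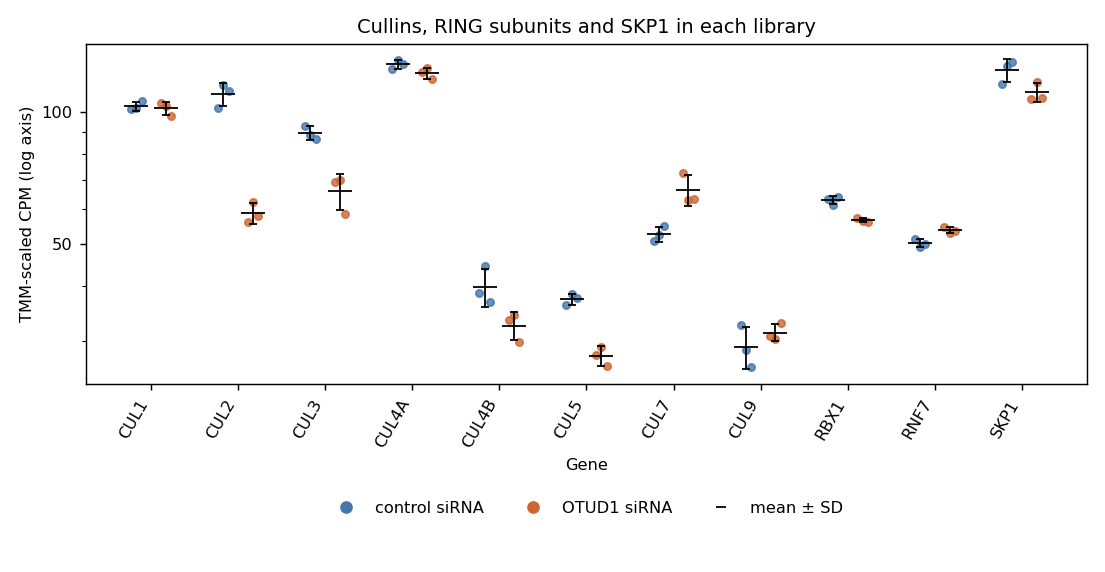
TMM-scaled CPM (log axis) of the cullins, SKP1, RBX1 and RNF7 in each of the 3 control siRNA and 3 OTUD1 siRNA libraries, with mean ± SD. The OTUD1 siRNA points of CUL2 sit at 55.9 to 62.1 CPM, clear of the control points at 102 to 115 CPM, whereas those of CUL1 and CUL4A overlap with control.

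The 3 F-box genes best known from the cell cycle, grouped after their values were seen, were lower. Of all tested genes, 31.1% were lower. Not every receptor with a cell-cycle substrate fell: FBXW7, the receptor for cyclin E, was not called (0.16 on the log2 scale). SKP2 fell most of all members. SKP2 (chr5:36151989-36184319) was at 25.8, 27.8 and 23.0 CPM in control and at 11.3, 12.6 and 11.9 CPM in OTUD1 siRNA libraries. It was 2.15-fold lower, a log2 fold change of −1.10 (SE 0.0897, adjusted p = 1.19e-11), and no other called member moved by 1 or more (log2). FBXO5 (chr6:152970519-152983579), which restrains the anaphase-promoting complex from S phase into G2, was at 35.5, 39.1 and 35.7 CPM against 22.1, 21.8 and 20.1 CPM. Its fall was 1.72-fold (SE 0.0697 on the log2 scale, adjusted p = 7.45e-11). CCNF (chr16:2429394-2458854), the receptor that gave the F-box its name and that marks the ribonucleotide reductase subunit RRM2, was at 33.9, 35.6 and 38.8 CPM against 22.2, 22.2 and 21.4 CPM. It was 1.64-fold lower (SE 0.0695 on the log2 scale, adjusted p = 4.72e-10).

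None of these 3 genes overlapped between the groups, which was also so for 64.5% of all tested genes. They moved together with other cell-cycle genes: of 40 tested S-phase genes 40 were lower, with a median log2 fold change of −0.69, and of 54 tested genes of G2 and mitosis 52 were lower, with a median of −0.62. The summed level of the S-phase list was 2479 to 2538 CPM in control and 1569 to 1591 CPM in OTUD1 siRNA libraries, and that of the G2 and mitosis list 6740 to 6894 CPM and 4474 to 4480 CPM. The part of a different share of cycling cells in the levels of SKP2, FBXO5 and CCNF was not tested.

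FBXW11, BTRC and FBXW7, 3 of the receptors for phosphorylated degrons, were grouped after their values were seen. Of these 3, 2 were lower and 1 was not called, where 31.1% of all tested genes were lower. FBXW11 and BTRC encode the paralogues of beta-TrCP, which marks IκBα and β-catenin. FBXW11 (chr5:171861549-172006873) was at 128, 136 and 133 CPM in control and at 96.6, 94.9 and 93.0 CPM in OTUD1 siRNA libraries, 1.40-fold lower (SE 0.0405 on the log2 scale, adjusted p = 2.44e-11). BTRC (chr10:101354033-101557321) was at 30.4, 37.5 and 34.2 CPM against 27.2, 26.8 and 26.9 CPM, 1.26-fold lower (SE 0.0717, adjusted p = 1.8e-04). Both were without overlap, as were 64.5% of all tested genes. FBXW7, the receptor for cyclin E and MYC (chr4:152320544-152536063), was at 22.6, 24.6 and 20.6 CPM against 25.5, 24.1 and 26.1 CPM. Its groups overlapped, and its log2 fold change of 0.16 did not pass the test (SE 0.0775, adjusted p = 0.0795). FBXW7 was called higher without control library 2 (0.23, adjusted p = 0.0215), with library totals (0.29), with quantiles made equal (0.19) and with genes under a mean of 5 CPM left out (0.21).

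Further falls were seen in receptors of several kinds. FBXL16 was at 8.20, 8.76 and 7.65 CPM in control and at 4.06, 4.42 and 5.78 CPM in OTUD1 siRNA libraries, a fall of 0.80 on the log2 scale (SE 0.144, adjusted p = 2.2e-05). FBXL4 was at 69.1, 70.7 and 67.1 CPM against 46.7, 46.2 and 49.6 CPM and fell by 0.54 (adjusted p = 3.31e-10). FBXO30 was at 58.3, 62.4 and 62.7 CPM against 40.4, 44.4 and 43.7 CPM, a fall of 0.52 (adjusted p = 3.73e-09). These 3 genes were clear of overlap, as were 64.5% of all tested genes. FBXO11, a receptor for BCL6, was at 31.6, 37.4 and 37.6 CPM against 25.2, 24.7 and 24.4 CPM and fell by 0.52 (adjusted p = 2.94e-07). MSH6, on the opposite strand, covers 25.2% of the exon bases of FBXO11, and because the strand setting of the counting is not given, its counts are uncertain to that extent. FBXO4, at 6.61 to 7.32 CPM against 4.67 to 5.56 CPM, fell by 0.46 (adjusted p = 0.0058).

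Smaller falls were less firm. FBXW8, the partner of CUL7, was at 33.3, 30.8 and 28.0 CPM in control and at 27.3, 24.9 and 26.9 CPM in OTUD1 siRNA libraries and fell by 0.22 on the log2 scale (adjusted p = 0.0106), FBXO28 by 0.20 (adjusted p = 0.00201) and FBXL18 by 0.18 (adjusted p = 0.0167). FBXW8 was not called without control library 1 (−0.16) or OTUD1 siRNA library 2 (−0.18), nor was FBXL18 without control library 3 (−0.17) or OTUD1 siRNA library 1 (−0.15), with DESeq2 (−0.17) or with genes under a mean of 5 CPM left out (−0.13). None of FBXW8, FBXO28 and FBXL18 was called with library totals (−0.09, −0.07 and −0.05) or with quantile normalization (−0.16, −0.11 and −0.11).

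Among the F-box genes that rose, FBXO2, FBXO44 and FBXO6 stood side by side on chromosome 1. FBXO2, FBXO6, FBXO44, FBXO17 and FBXO27 share a related domain. In FBXO2 and FBXO6 it binds glycans, and both act on misfolded glycoproteins exported from the endoplasmic reticulum. Of these 5 genes, grouped after their values were seen, 3 were higher and 0 lower, with a median log2 fold change of 0.32. Of all tested genes, 29.3% were higher and 31.1% lower. FBXO6 (chr1:11664124-11674354) was at 10.6, 11.1 and 11.3 CPM in control and at 20.6, 19.7 and 18.3 CPM in OTUD1 siRNA libraries, 1.78-fold higher (SE 0.0919 on the log2 scale, adjusted p = 6.17e-09). FBXO2 (chr1:11637018-11655785) was at 18.1, 17.5 and 15.5 CPM against 26.5, 25.2 and 29.1 CPM, 1.58-fold higher (SE 0.0823, adjusted p = 6.07e-08). FBXO44 (chr1:11654375-11663327), which lies between them, was at 30.6, 24.9 and 28.8 CPM against 34.6, 34.0 and 36.4 CPM, 1.25-fold higher (SE 0.0709, adjusted p = 3.16e-04).

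The 3 clustered genes did not overlap between the groups, nor did 64.5% of all tested genes. FBXO2 and FBXO44 lie on opposite strands and share 267 exon bases, so reads from that stretch could count for either. The tested neighbours on the far side of FBXO6 were not called: MAD2L2 had a log2 fold change of 0.11 (adjusted p = 0.126), AGTRAP of 0.00 (adjusted p = 0.956) and DRAXIN, under 1 CPM, of −0.83 (adjusted p = 0.124). The relatives on chromosome 19 had overlapping groups. FBXO17 was at 23.9 to 27.7 CPM in control against 22.8 to 24.5 CPM, and FBXO27 at 61.9 to 70.3 CPM against 61.6 to 63.7 CPM. Neither passed the test (log2 fold changes −0.09 and −0.05, adjusted p = 0.304 and 0.443), and both turned above 0 with library totals.

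Other rises were spread over the 3 classes. FBXW4 (chr10:101610664-101695295) was at 37.0, 32.2 and 35.03 CPM in control and at 56.4, 58.8 and 58.3 CPM in OTUD1 siRNA libraries, 1.67-fold higher (SE 0.0587 on the log2 scale, adjusted p = 7.39e-12). Its neighbour BTRC, 53342 bases away on the other strand, moved the opposite way. FBXW9 (chr19:12688053-12696643) was at 10.3, 10.1 and 11.7 CPM against 16.7, 18.8 and 19.6 CPM, 1.71-fold higher (adjusted p = 7.96e-08); GNG14 overlaps 13.5% of its exon bases. FBXL8 was at 4.44, 3.91 and 4.15 CPM against 7.07, 6.75 and 6.94 CPM, 1.66-fold higher (adjusted p = 5.42e-05), and shares 26.8% of its exon bases with a gene model on its own strand. All 3 were without overlap, as were 64.5% of all tested genes.

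FBXL20 was at 13.8, 11.9 and 13.3 CPM in control and at 19.6, 18.8 and 16.6 CPM in OTUD1 siRNA libraries, 1.41-fold higher (adjusted p = 4.57e-05). FBXO10, a receptor for the survival protein BCL2, was at 7.20, 8.20 and 6.36 CPM against 10.3, 10.4 and 10.7 CPM, 1.44-fold higher (adjusted p = 3.12e-04). Of the exon bases of FBXO10, 48.0% are shared with a gene model on the same strand, so its counts are uncertain. FBXL21 was at 2.25, 2.37 and 2.39 CPM against 2.96, 3.03 and 4.39 CPM, a log2 fold change of 0.55 (adjusted p = 0.0254). OTUD1 siRNA library 3 held its highest value, and without that library it was 0.36 and not called (adjusted p = 0.205); it was not called either without control library 1 (adjusted p = 0.0584), with quantile normalization (0.31) or with DESeq2 (0.56). The remaining 13 F-box genes called higher rose by 0.19 to 0.49 on the log2 scale, among them FBXO7, a receptor linked to mitochondrial quality control, at 94.3 ± 3.98 CPM in control and 107.4 ± 0.787 CPM in OTUD1 siRNA libraries (mean ± SD, n = 3).

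**Figure D3:**
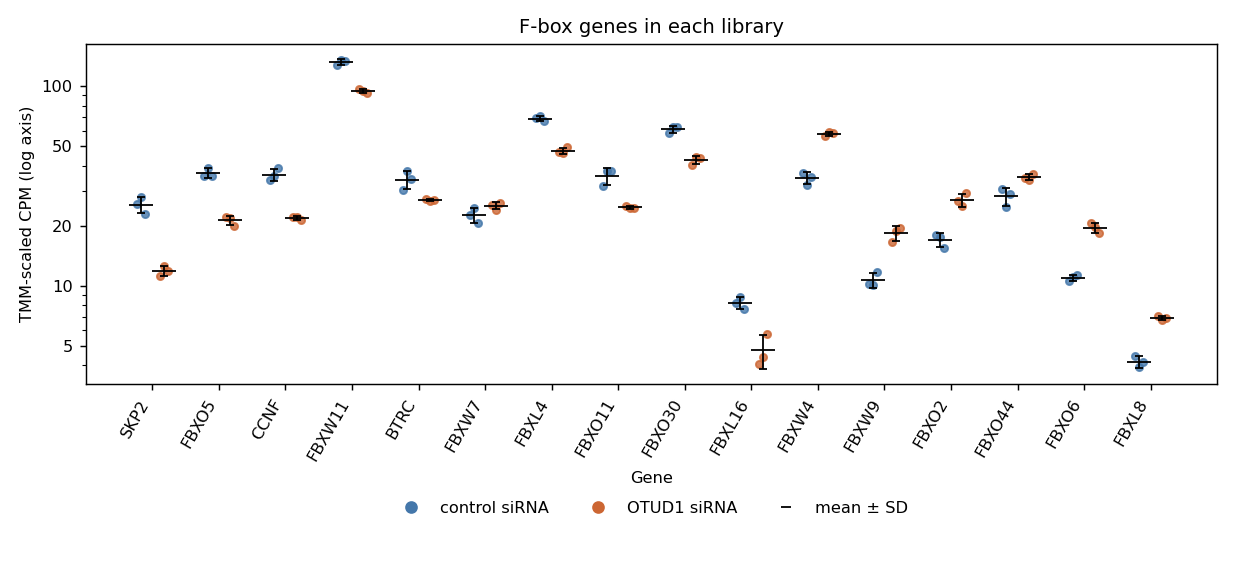
TMM-scaled CPM (log axis) of selected F-box genes called higher or lower and of FBXW7, in each control siRNA and OTUD1 siRNA library (n = 3 a group), with mean ± SD. SKP2, FBXO5 and CCNF lie lower and FBXO6, FBXO2 and FBXW4 higher in all 3 OTUD1 siRNA libraries, while FBXW7 overlaps between the groups.

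Several well-known receptors did not pass the test. FBXW5, the most abundant F-box mRNA per length, was at 164, 154 and 156 CPM in control and at 156, 148 and 152 CPM in OTUD1 siRNA libraries (log2 fold change −0.06, approximate 95% interval −0.13 to 0.02, adjusted p = 0.202). FBXL5, the iron-sensing receptor for the iron regulatory protein IREB2, had a log2 fold change of 0.05 (adjusted p = 0.407), FBXO22 of 0.06 (adjusted p = 0.248) and FBXW2 of 0.02 (adjusted p = 0.772). FBXO34 fell without overlap in its values, 24.5 to 27.7 CPM against 22.1 to 24.4 CPM, but its log2 fold change of −0.17 did not pass (adjusted p = 0.057); it was called without control library 1 (−0.20) or OTUD1 siRNA library 3 (−0.21).

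At the edge of the count filter, FBXL22 had 12, 3 and 4 counts in control and 15, 13 and 13 counts in OTUD1 siRNA libraries. It passed the filter through its OTUD1 siRNA libraries, since only library 1 of the control group reached 10 counts. Its log2 fold change of 0.86 had an SE of 0.492 and did not pass (adjusted p = 0.133). Without control library 1 the value was 1.75, resting on control counts of 3 and 4, and no support is drawn from it. FBXO15, also just inside, had 9, 14 and 9 counts against 16, 7 and 12. FBXO32, the muscle atrophy receptor atrogin-1, fell just outside with 7, 9 and 3 counts against 10, 3 and 6. The other 5 genes left out had at most 3 counts in a library (FBXW10, FBXO47 and FBXW12) or 0 counts in all 6 (FBXO39 and FBXO40). A count of 3 corresponds to 0.137 to 0.188 CPM in these libraries, and changes at such levels could not be tested at this depth.

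Levels per length show which members make up the pool. Counts were divided by the length of all annotated exons of a gene, as CPM per kilobase (RPKM), which understates genes such as SKP1 whose annotated exons, at 12771 bases, include a long 3′ UTR. By this measure FBXW5 (48.6 RPKM), FBXW11 (23.7), FBXO27 (23.0), FBXL5 (17.9) and FBXL19 (17.4) led the F-box genes in control cells, and CUL1 (28.99 RPKM) and CUL2 (21.3 RPKM) led the cullins. The F-box genes summed to 393, 383 and 384 RPKM in the control libraries and to 390, 390 and 397 RPKM in the OTUD1 siRNA libraries, with overlap. The cullins summed to 94.8, 99.0 and 98.0 RPKM against 86.2, 86.1 and 81.1 RPKM, without overlap. Both sums used TMM scaling and were not repeated with library totals, so the overlap of the F-box sums may depend on the scaling. Over library totals without TMM, the counts of all members came to 2623.2 to 2650.5 CPM in the control libraries. In the OTUD1 siRNA libraries the members came to 2761.8 to 2790 CPM by that measure, without overlap.

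CUL2 made up 20.9% to 22.6% of the cullin pool in control and 12.6% to 14.02% in OTUD1 siRNA libraries, and CUL1 28.98% to 30.3% against 33.8% to 34.2%. Shares within a library do not depend on its scaling. SKP2 made up 1.56% to 1.89% of the F-box pool in control and 0.753% to 0.839% in OTUD1 siRNA libraries, and FBXW5 12.4% to 12.8% against 11.7% to 12.3%.

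Ratios between related members were compared within each library, which is also free of library scaling. For 8 pairs the difference in mean log2 ratio was tested over the 6 libraries by an exact two-sided permutation test, which with 3 against 3 cannot go below p = 0.1; the lowest Benjamini-Hochberg value over the 8 pairs was 0.2, so no pair passed. The ratio of FBXO10 to FBXO11, which share a related substrate-binding fold, moved most. It was 0.228, 0.220 and 0.170 in control and 0.411, 0.423 and 0.437 in OTUD1 siRNA libraries, 2.07-fold higher and without overlap (exact permutation p = 0.1), with the limits on the counts of both genes given above. The ratio of RBX1 to RNF7 was 1.24, 1.24 and 1.28 against 1.05, 1.07 and 1.05 (exact permutation p = 0.1). CUL4A to CUL4B went from 3.23, 2.94 and 3.49 to 3.67, 3.65 and 3.95, and BTRC to FBXW11 from 0.238, 0.277 and 0.257 to 0.282, 0.282 and 0.290, both without overlap (exact permutation p = 0.1 each).

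The other 4 pairs overlapped between the groups. CUL7 to CUL9 differed by 0.22 on the log2 scale (exact permutation p = 0.3), FBXL2 to FBXL20 by −0.49 (p = 0.2), FBXO2 to FBXO6 by −0.17 (p = 0.3) and FBXO34 to FBXO46 by −0.10 (p = 0.6).

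**Figure D4:**
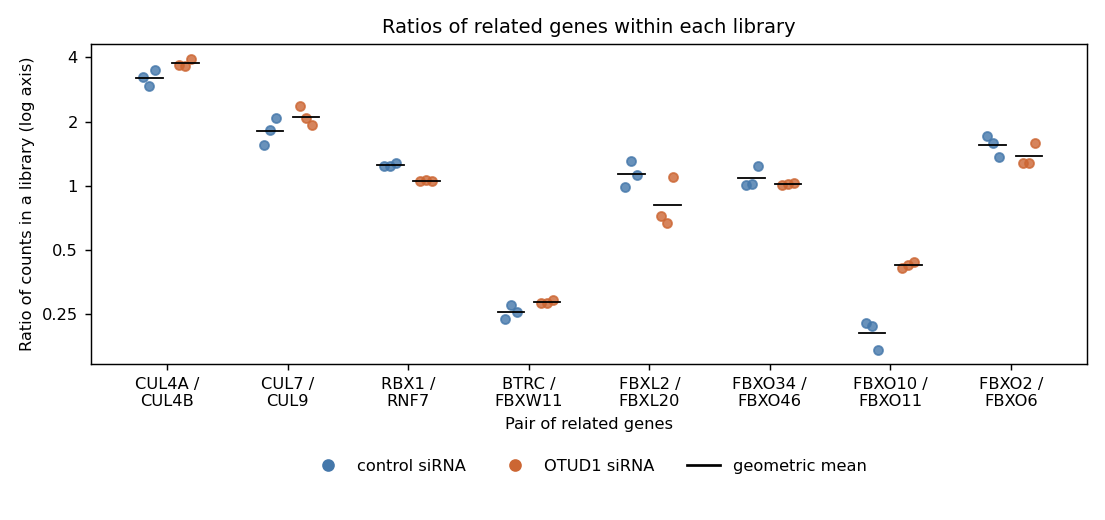
Ratio of counts (log axis) between related members in each library, for 3 control siRNA and 3 OTUD1 siRNA libraries, with the geometric mean of each group as a line. The FBXO10 to FBXO11 ratio is at 0.170 to 0.228 in control and at 0.411 to 0.437 in OTUD1 siRNA libraries, and the pairs CUL4A to CUL4B, RBX1 to RNF7 and BTRC to FBXW11 also do not overlap.

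Genes that switch cullins on were mostly lower in the fit as reported. Of 10 genes for NEDD8 and its attachment, 7 were lower and 3 higher, with a median log2 fold change of −0.18. Of all tested genes 31.1% were lower and 29.3% higher, shares that also stand beside the list counts below. UBE2F, the NEDD8-conjugating enzyme for CUL5, was at 13.4 ± 1.09 CPM in control and 7.32 ± 0.385 CPM after OTUD1 siRNA (mean ± SD, n = 3), −0.88 on the log2 scale (adjusted p = 6.15e-08). The co-ligases DCUN1D1, DCUN1D4 and DCUN1D5, which help NEDD8 onto cullins, fell by 0.68, 0.56 and 0.53 on the log2 scale (adjusted p = 2.65e-08, 3.86e-08 and 9.34e-10). NAE1 and UBA3, the subunits of the NEDD8-activating enzyme, fell by 0.19 and 0.18 (adjusted p = 0.00203 and 0.00574), and UBE2M by 0.15 (adjusted p = 0.0122). NEDD8 itself rose by 0.15 (adjusted p = 0.0304), DCUN1D2 by 0.33 (adjusted p = 0.0266) and DCUN1D3 by 0.20 (adjusted p = 0.0157). Calls under 0.35 in this list were not firm: with library totals and with quantile normalization 4 of the 10 were lower, as NAE1, UBA3 and UBE2M were no longer called. NEDD8 was not called without control library 2 or 3 or OTUD1 siRNA library 1 or 2, DCUN1D3 without control library 3 or OTUD1 siRNA library 1 or 2, and DCUN1D2 without control library 1 or OTUD1 siRNA library 2 or 3. UBE2M was not called without control library 1 or OTUD1 siRNA library 1, nor UBA3 without OTUD1 siRNA library 3.

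The machinery that removes NEDD8 and exchanges receptors moved less. Of 13 tested genes, mostly subunits of the COP9 signalosome, 4 were higher and 5 lower, none by more than 0.30 on the log2 scale, for example COPS8 up by 0.30 (adjusted p = 5.72e-06) and COPS7B at −0.28 (adjusted p = 3.39e-06). With library totals and with quantile normalization 1 of the 13 was lower. Of 10 enzymes that hand ubiquitin to cullin ligases, 6 were lower and 3 higher, or 1 higher without control library 2 or 3, without OTUD1 siRNA library 3 or with no filter. ARIH1, the RING-between-RING ligase that works with NEDD8-bearing CUL1, fell from 65.0 ± 3.05 to 41.0 ± 2.43 CPM (−0.67, adjusted p = 2.9e-11), and its E2 partner UBE2L3 from 152 ± 6.74 to 104 ± 1.67 CPM (−0.55, adjusted p = 1.31e-12). UBE2R2, a chain-building E2 for SCF ligases, fell by 0.47 (adjusted p = 1.05e-09), while its paralogue CDC34 rose by 0.18 (adjusted p = 2.85e-04).

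Receptors of the other cullins moved in both directions. Of 36 tested adaptors and receptors of CUL2 and CUL5, 16 were lower and 10 higher, with a median log2 fold change of −0.09. With CUL2 itself, the shared adaptor ELOC fell from 68.4 ± 3.32 to 40.6 ± 2.38 CPM (−0.75, adjusted p = 1.89e-12) and VHL from 64.2 ± 1.91 to 40.6 ± 2.87 CPM (−0.67, adjusted p = 3.43e-11). KLHDC3, a CUL2 receptor for C-terminal degrons, rose from 56.7 ± 1.08 to 129.8 ± 5.42 CPM (1.19, adjusted p = 3.95e-19), and its relative KLHDC2 rose by 0.61 (adjusted p = 3.98e-08). Of 39 BTB receptors of CUL3, 15 were lower and 5 higher. SPOP fell from 58.2 ± 0.199 to 28.9 ± 0.270 CPM (−1.01, adjusted p = 2.36e-15), ANKFY1 by 0.86 (adjusted p = 8.68e-16), and KLHL22 rose by 0.45 (adjusted p = 6.57e-05).

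The CUL4 receptors divided evenly, with 9 lower and 8 higher of 31. DCAF1 fell by 0.73 (adjusted p = 1.14e-11) and DTL, an S-phase receptor, by 0.70 (adjusted p = 9.74e-13), while DCAF16 rose by 0.80 (adjusted p = 3.05e-09) and WDTC1 by 0.65 (adjusted p = 2.77e-10). With library totals 13 of the CUL3 receptors and 14 of the CUL4 receptors were called higher, and 8 of the CUL3 receptors with quantile normalization or with genes under a mean of 5 CPM left out. Of the 2 partners of CUL7, CCDC8 fell by 0.29 (adjusted p = 0.00249), a call lost with library totals (−0.16). Of 6 F-box genes whose symbols do not show it, 3 were higher (1 was lower with quantile normalization, with limma-voom or without control library 2): the histone demethylases KDM2A (0.48, adjusted p = 1.26e-08) and KDM2B (0.51, adjusted p = 1.6e-06), and LRRC29 (1.19, adjusted p = 3.31e-05), which was at 1.59 ± 0.370 CPM in control and 3.63 ± 0.169 CPM in OTUD1 siRNA libraries.

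mRNAs of proteins that SCF ligases are known to mark were mostly lower. Of 29 tested, 24 were lower and 3 higher, with a median log2 fold change of −0.56; the list holds cell-cycle genes, of which CCNE2, RRM2 and CDC6 are also on the S-phase list, and mRNA levels say nothing of protein turnover. CCND1, cyclin D1, fell from 1001 ± 11.7 to 220.4 ± 4.70 CPM (−2.18, adjusted p = 1.75e-29). NFKBIA, which encodes the beta-TrCP substrate IκBα, fell by 1.19 (adjusted p = 7.82e-23), and RRM2 and CDC6, both marked by cyclin F, by 1.44 and 1.24 (adjusted p = 1.17e-18 and 7.1e-18). CDKN1B, the SKP2 substrate p27, picked after its values were seen, was at 97.9, 99.8 and 102.8 CPM in control and at 76.2, 73.6 and 73.9 CPM in OTUD1 siRNA libraries and fell by 0.43 (adjusted p = 1.42e-09). Against the direction of most, the clock repressors CRY1 and CRY2 rose by 0.28 and 0.38 (adjusted p = 1.95e-07 and 1.02e-04).

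**Figure D5:**
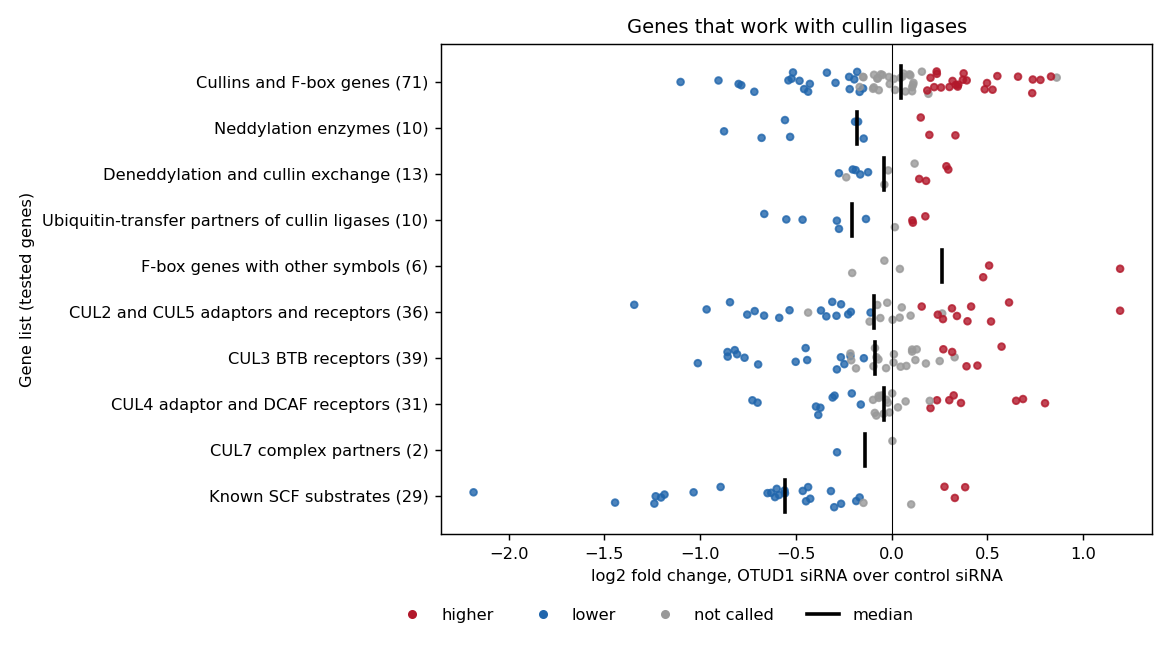
Log2 fold change (OTUD1 siRNA over control siRNA, n = 3 libraries a group) of each tested gene in the lists of genes that work with cullin ligases, coloured by the edgeR call, with the list's median as a line. The known SCF substrates have the lowest median of the lists shown, −0.56. The S-phase list, with a median of −0.69, and the G2 and mitosis list, with −0.62, are not shown.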

How the data were processed

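RNA-seq counts of 6 ACHN libraries were analysed, 3 with control siRNA and 3 with OTUD1 siRNA. Per the labels' protocols, Trizol was used to harvest RNA, and a NEBNext Ultra Directional kit made the libraries. Per the submitters' processing notes, the genome build is hg38. The sources used here do not give the aligner, counter, strand setting or annotation. The deposited table holds whole-number counts per gene, although its name speaks of FPKM, and the counts were used as the authors deposited them.

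The test was edgeR's quasi-likelihood test (edgeR 4.0.16, R 4.3.3), two-sided, after filterByExpr, which kept 15244 of 58735 rows, and TMM scaling. A gene was called at a Benjamini-Hochberg adjusted p under 0.05, taken over the whole table. The biological coefficient of variation was 3.78%. Fold changes are OTUD1 siRNA over control, and approximate 95% intervals come from the SE. The fit was tested on simulated data for this comparison. Of 15040 genes, 200 were changed, evenly up and down, and all genes shared 1 dispersion. True log2 changes of 0.5 were called in 67.3% of cases and changes of 1 in 96%, and 8 unchanged genes were called. In the real data 60.4% of tested genes were called, so these rates may not hold there.

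Members and gene lists were chosen with earlier results of these data known. The genes named were the cullins, SKP1, RBX1, RNF7, SKP2, BTRC, FBXW11, FBXW7, CCNF and FBXO5, the 8 largest increases and 8 largest decreases among the other called members whose groups did not overlap, members of related pairs and those at the count limit, and from each other list the called genes of smallest adjusted p (at most 4) and those that moved against most (at most 2). Others, among them FBXW5, FBXL18, FBXO44, CDKN1B and the rest of the NEDD8 list, were picked after their values were seen. The values of 1 F-box member are not reported here, but the counts of members include it.

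Coordinates, exon lengths and 3′ UTRs come from GENCODE 29, on the same build (99.95% of rows matched by symbol), and promoters from RefSeq on GRCh38.p14, read with Python 3.11.15. No library was a copy of another: the mean chi-square per gene was 2.05 to 3.73 within a group and 46.8 to 56.5 across groups. Alternatives covered the filter, the scaling, DESeq2 1.42.0, limma 3.58.1 (voom and quantile), the replicate number as a block and each library left out.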

Additional observations from a re-analysis of the deposited data

How the results depend on the processing

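The counts of called members kept within 1.5 times of 23 higher and 20 lower under every alternative, from 21 to 33 higher and from 14 to 21 lower; with library totals the 14 lower members were among the 20. Leaving out single libraries gave 21 to 23 higher and 19 to 21 lower. The members' median of 0.05 was 0.18 with library totals, where the median of all genes was 0.13, and 0.006 to 0.058 with single libraries left out (0.006 without control library 1 and 0.014 without OTUD1 siRNA library 3). Genes of the other pathway lists called higher numbered 39, 60 with library totals and 32 to 38 with single libraries left out. The cause was not tested.

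Values near 0 turned sign. With library totals these were CUL1 (0.115), CUL4A (0.063), FBXO46 (0.057), FBXO15 (0.03), FBXW5 (0.073), FBXO17 (0.037) and FBXO27 (0.081). With quantile normalization they were CUL1 (0.086), CUL4A (0.047), FBXW5 (0.072), FBXO27 (0.047) and FBXL2 (−0.023). FBXL2 was −0.011 with limma-voom and CUL1 0.034 with a minimum mean of 5 CPM. With single libraries left out, CUL1 ranged from −0.033 to 0.014, FBXL2 from −0.145 to 0.125, FBXO15 from −0.312 to 0.166 and FBXO27 from −0.081 to 0.006.

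With the replicate number as a block, 23 members were higher and 20 lower, the same genes as without it, and the median was 0.05. Same-numbered libraries did not deviate together over all tested genes (correlations −0.023, 0.018 and −0.018), so no pairing by number was seen. Whether they shared a culture or batch cannot be decided from this, because counting noise could mask a weak shared effect. Members at the count limit, FBXL22 and FBXO15, had SEs of 0.492 and 0.428, and the depth limits what can be said of them.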
